A study of Mus musculus with 24 samples.

Results

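The mitochondrial ribosomal protein genes are the protein-coding genes of the count table whose symbol begins with Mrpl or Mrps followed by a digit. There were 78 of them (49 Mrpl and 29 Mrps genes) among 55416 genes. The rule used names only and no measured value, but it was set with earlier results of these data known. All 78 passed the filter on low counts that left 16408 genes for testing. RNA was sequenced from gastrocnemius muscle of 24 mice in 4 groups of 6: male sham, male small mouse cage (SMC), female sham and female SMC. All groups were wild-type, with the strain written C56BL6J in the labels, and the mice were 8 weeks old when bought. SMC mice had spent 8 weeks in a small cage that limits movement, sham mice had not, and every mouse was fasted before the tissue was taken. The comparisons ask how the mRNAs for these proteins differed after SMC in each sex, and between the sexes without it.

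The mitochondrial ribosome sits in the mitochondrial matrix and translates the few mRNAs of the mitochondrial genome, all of which encode core subunits of oxidative phosphorylation. Its rRNAs come from the mitochondrial genome, but every protein of it is made from a nuclear gene by the cytosolic ribosome and imported. Some of these proteins descend from proteins of the bacterial ribosome, and others were added during the evolution of mitochondria, which is why Mrp genes fall into a group with bacterial kin and a group particular to mitochondria. By this background knowledge, 51 of the genes encode proteins of the large subunit (29 with bacterial kin and 22 particular to mitochondria, among them Mrps30 and Mrps18a despite their names) and 26 proteins of the small subunit (16 and 10). Mrps36, the remaining one, is known as a component of the alpha-ketoglutarate dehydrogenase complex and is not part of the ribosome structure.

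Total counts per library ranged from 23026627 to 36880413, and the 78 genes together took 0.119% to 0.195% of them. The lowest count of any member in any library was 11, for Mrpl53. Skeletal muscle markers were high in every library, with a summed CPM (counts per 1000000, on library sizes scaled by the trimmed mean of M values, TMM) of the 6 markers between 141800 in a male sham and 378200 in a female sham mouse. The sex labels matched Xist and Ddx3y in 24 of 24 libraries. Male sham mouse 4 and female sham mouse 7 stood apart, since the summed CPM of 10 slow fibre markers was 86.4 and 72.9 there, against 692.5 or more in male SMC and 1491 or more in female SMC mice. Of these 10 markers, none was at 0 in every library and none passed the test in either sex, with 7 of 10 higher after SMC in males and 10 of 10 in females. Their part in the results was not tested, and results that turn on these mice are given with and without them.

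No member passed the test for SMC against sham within a sex, and 2 of them, Mrps14 and Mrpl20, fell when the male and female differences were averaged. Calls were made by edgeR's quasi-likelihood test where the false discovery rate (FDR), by Benjamini-Hochberg adjustment over every gene tested, was below 0.05. In the mean of both sexes 2 of 78 members were called, both lower, where 2.36% of all genes tested were called and 1.33% were called lower. At an unadjusted p under 0.05 there were 15 members (12 lower and 3 higher), where 17.5% of all genes were at that level, 9.65% lower and 7.90% higher. Both shares are near those of all genes, so the counts alone are no result about the mitochondrial ribosome. DESeq2 and limma with voom quality weights each called 3 members, where they called 2.28% and 3.30% of all genes. The DESeq2 shares, here and below, are over the 33905 genes with any count, and the edgeR and limma shares over 16408. A DESeq2 share is therefore not on a like footing with the other shares, or with the members, which all passed the filter. With library totals in place of TMM, 11 members were called and 31 were at an unadjusted p under 0.05, where the shares of all genes were 11.3% and 29.9%.

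Mrps14 encodes a small subunit protein with bacterial kin, a relative of bacterial S14 in the head of the subunit. The 6 female sham mice had a lowest CPM of 13.5, a median of 14.97 and a highest of 15.8, and the 6 female SMC mice 10.1, 12.3 and 13.2. The female groups did not overlap, as every SMC mouse was below every sham mouse. In males the sham mice had 14.8, 16.6 and 18.3 CPM and the SMC mice 11.8, 14.4 and 17.2. The male groups overlapped, with 5 of 6 SMC mice below the sham mean. Averaged over the sexes, Mrps14 fell by 0.26 on the log2 scale (SE 0.0623, edgeR FDR 0.0261). Within a sex the log2 fold change was -0.33 in females (95% confidence interval -0.51 to -0.14, edgeR FDR 0.100) and -0.20 in males (-0.38 to -0.02, edgeR FDR 0.392). DESeq2 called the female difference as well, at an FDR of 0.0466.

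Mrpl20 encodes a large subunit protein related to bacterial L20, which in bacteria binds the rRNA early in assembly of the subunit. Its CPM in male sham mice had a lowest value of 5.39, a median of 7.14 and a highest of 7.72, against 4.65, 5.42 and 6.43 in male SMC mice. In females the sham mice had 5.58, 6.26 and 6.49 and the SMC mice 4.13, 5.24 and 5.79. Groups overlapped in both sexes, but 6 of 6 SMC mice lay below the sham mean of their sex in males and again in females. Averaged over the sexes Mrpl20 fell by 0.31 on the log2 scale (SE 0.0749, edgeR FDR 0.0263), from -0.35 in males (edgeR FDR 0.201) and -0.27 in females (edgeR FDR 0.257). Leaving out any 1 of the 24 mice kept both calls, with an FDR of at most 0.0499. Neither held without the filter on low counts, where the edgeR FDR was 0.0610 for Mrps14 and 0.0653 for Mrpl20.

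Mrps2, a relative of bacterial S2 in the small subunit, lay at the opposite end. Its CPM was 11.02 to 14.1 (median 12.9) in male sham mice and 13.3 to 16.9 (median 15.1) in male SMC mice. In females it was 9.37 to 12.7 (median 10.8) in sham and 10.7 to 15.5 (median 12.5) in SMC mice. The SMC mice were above the sham mean of their sex in 6 of 6 males and 5 of 6 females, and the groups overlapped in both. The log2 fold change was 0.25 in males (edgeR FDR 0.305), 0.21 in females (edgeR FDR 0.336) and 0.23 in the mean of both sexes (SE 0.0658, edgeR FDR 0.0590), short of the threshold. DESeq2 put the last value at an FDR of 0.0301 and limma with voom quality weights at 0.0477, and with library totals in place of TMM the log2 fold change was 0.10 at an FDR of 0.413.

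The sequences before the start sites of these 3 genes are shown because they are the members with the lowest FDR in the mean of both sexes. Each is the 250 bases that end just before the start of transcription in RefSeq for GRCm38.p6, all on the + strand, at chr1:160194965-160195214 for Mrps14, chr4:155802628-155802877 for Mrpl20 and chr2:28467816-28468065 for Mrps2. The counts themselves were made on GRCm39. No capitals appear, because none of the 5 motifs searched for was in these stretches. Mrpl20 has a CCAAT in the 50 bases after the start, which are not printed.
Mrps14: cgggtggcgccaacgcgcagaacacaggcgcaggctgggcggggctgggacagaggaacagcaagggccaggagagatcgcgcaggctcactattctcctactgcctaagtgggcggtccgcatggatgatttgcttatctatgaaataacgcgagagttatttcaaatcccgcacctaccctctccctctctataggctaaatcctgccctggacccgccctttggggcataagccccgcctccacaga
Mrpl20: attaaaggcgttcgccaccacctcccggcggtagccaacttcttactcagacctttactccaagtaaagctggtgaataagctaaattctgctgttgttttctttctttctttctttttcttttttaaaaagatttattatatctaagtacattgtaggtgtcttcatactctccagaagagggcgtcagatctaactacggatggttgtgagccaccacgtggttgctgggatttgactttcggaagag
Mrps2: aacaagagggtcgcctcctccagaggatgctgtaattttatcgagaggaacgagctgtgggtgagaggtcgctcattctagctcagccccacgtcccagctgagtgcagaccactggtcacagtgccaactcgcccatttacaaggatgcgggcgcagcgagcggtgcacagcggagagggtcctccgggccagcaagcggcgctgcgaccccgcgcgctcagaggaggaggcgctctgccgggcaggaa

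**Figure D1:**
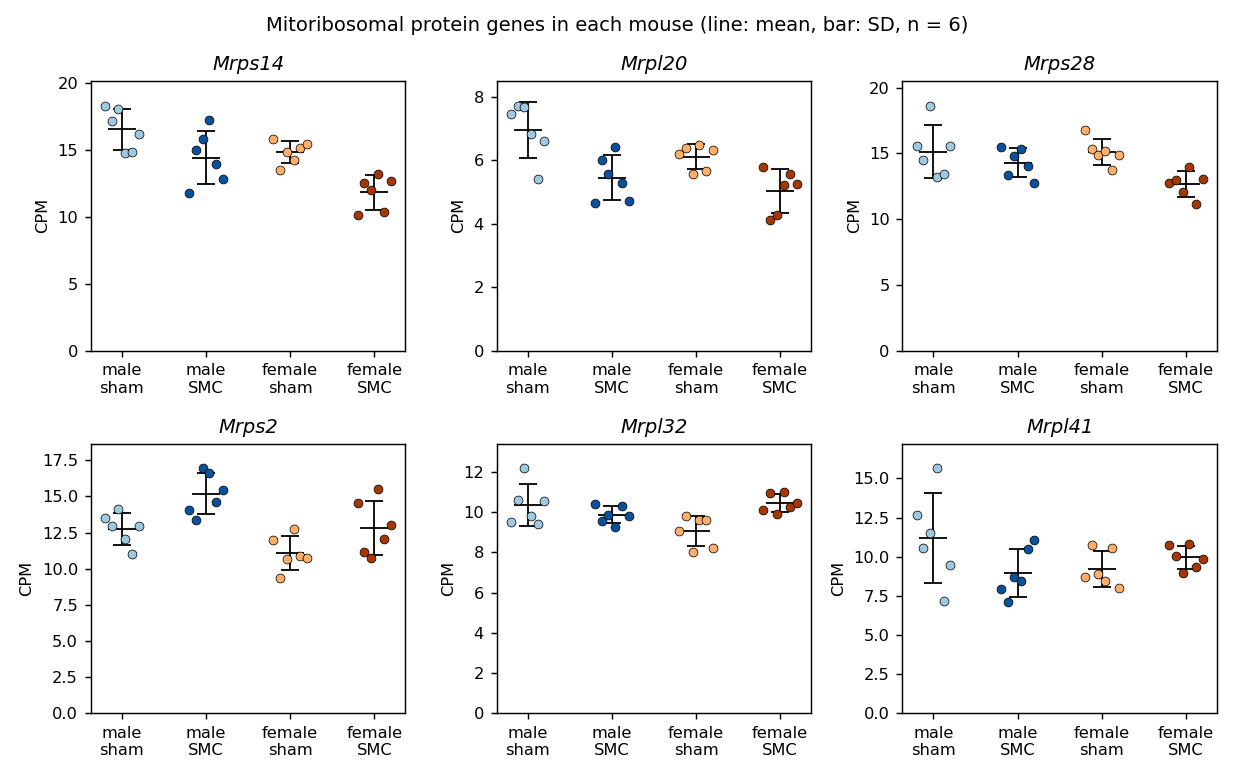
CPM (y axis, from 0) of 6 mitochondrial ribosomal protein genes in each of 24 mice, by group on the x axis, with the mean as a line and the SD as a bar (n = 6). In females the SMC mice lie entirely below the sham mice for Mrps14 and entirely above them for Mrpl32, while the groups overlap in every other panel and in all male comparisons.

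In males, the list was shifted down on average after SMC, by an amount within the spread of the mice. The mean log2 CPM over the 78 genes was 4.04 ± 0.129 (SD, n = 6) in male sham and 3.99 ± 0.101 in male SMC mice. The ranges overlapped, at 3.85 to 4.20 and 3.81 to 4.08. Of 78 members, 55 had a log2 fold change below 0, where 50.9% of all genes did, and the median of the members was -0.05 against 0.00 over all genes. edgeR called 0 members and 0 genes at an FDR under 0.05 (0% of all genes). At an unadjusted p under 0.05 there were 10 members, 9 lower and 1 higher, where 11% of all genes were at that level, 5.59% lower and 5.41% higher. This count was 17 with library totals, where 2651 of 16408 genes were at that level. It ranged from 5 to 14 as single mice were left out. There were 5 without male sham mouse 3 (1894 of 16561 genes) or male SMC mouse 13 (1818 of 16563). There were 6 without male sham mouse 1 (1499 of 16527) and 14 without male sham mouse 5 (2116 of 16566). DESeq2 and limma with voom weights also called 0 members, where they called 0.389% and 0.567% of all genes. The size of the shift rested on single mice. The median was -0.10 without male sham mouse 4 and -0.01 without male SMC mouse 14, and without both sham mice that stood apart 66 of 78 members were below 0.

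The male members furthest down were Mrpl20, Mrpl41, Mrpl53, Mrpl52 and Mrpl14, all of the large subunit. Mrpl41, a protein particular to mitochondria, had 7.18 to 15.6 CPM (median 11.1) in male sham and 7.09 to 11.1 CPM (median 8.57) in male SMC mice. Every SMC male was below the sham mean, but the sham range covers nearly the whole SMC range, and its top is sham mouse 4. The log2 fold change was -0.32 (SE 0.137, edgeR FDR 0.376), and -0.21 without that mouse. Mrpl52, also particular to mitochondria, went from a median of 11.4 to 9.85 CPM with a log2 fold change of -0.24 (edgeR FDR 0.356). Mrpl53 (-0.28) and Mrpl14 (-0.21) had standard errors of 0.239 and 0.163, so neither difference exceeded its error by much. At the upper end were Mrps2, Mrpl19 (0.21), Mrpl39 (0.18), Mrpl4 (0.12) and Mrpl45 (0.12), the last of which encodes the protein that ties the ribosome to the inner membrane. Mrpl19, Mrpl39, Mrpl4 and Mrpl45 were all lowest in male sham mouse 4 among the sham males, and their log2 fold changes without it were 0.11, 0.11, 0.07 and 0.01. Mrpl4 and Mrpl45 turned to -0.01 and -0.02 with library totals in place of TMM.

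In females the list was centred on 0. Of 78 members, 34 were lower after SMC, where 52.4% of all genes were, and the median was 0.02 against -0.01 over all genes. edgeR called 0 members in females, where 0.341% of all genes were called, DESeq2 called 1, Mrps14 (0.767% of all genes), and limma 0 (0.0975%). At an unadjusted p under 0.05 there were 10 members, with 4 lower and 6 higher, beside 12.5% of all genes, 7.47% lower and 5.02% higher. The count ranged from 6 without female SMC mouse 19 (1810 of 16566 genes) to 15 without male sham mouse 4 (2291 of 16568). The 4 lower ones were Mrps14, Mrpl20, Mrps28 and Mrps34, and the 6 higher ones Mrps2, Mrpl40, Mrpl32, Mrps18b, Mrpl10 and Mrpl17. Of the 4, 3 are small subunit proteins. Counting genes whose 6 SMC mice all lay on one side of the 6 sham mice gave 3 members in females and 0 in males, where 1.03% and 0.902% of all genes were so placed. In females 0.634% of all genes were entirely below and 0.396% entirely above.

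The 3 without overlap were Mrps14, Mrps34 and Mrpl32. Mrps34, a small subunit protein particular to mitochondria, had 18.7 to 20.8 CPM (median 19.5) in female sham and 17.4 to 18.4 CPM (median 17.7) in female SMC mice. The gap is narrow, and the log2 fold change was -0.14 (SE 0.0615, edgeR FDR 0.336). Exons of other genes cover 77.8% of its exon bases, those of Nme3 on the same strand among them, so its counts are less certain. Mrpl32, a large subunit protein that is cut to its mature form by the m-AAA protease of the inner membrane, had 8.04 to 9.79 CPM (median 9.33) in female sham and 9.89 to 11.01 CPM (median 10.4) in female SMC mice. All 6 SMC females were above all sham females, a difference of 0.21 on the log2 scale (SE 0.0703, FDR 0.186 by edgeR). In males Mrpl32 went the other way by a smaller amount, from a median of 10.2 to 9.85 CPM (log2 fold change -0.07).

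Mrps28, a relative of bacterial S1 in the small subunit, had 13.7 to 16.8 CPM (median 15.1) in female sham and 11.2 to 14 CPM (median 12.9) in female SMC mice. A single sham mouse, at 13.7, lay within the range of the SMC mice. The log2 fold change was -0.26 in females (SE 0.0792, edgeR FDR 0.142) and -0.08 in males (edgeR FDR 0.761). Mrpl9 (-0.16) and Mrpl53 (-0.20) were the other 2 of the 5 lowest in females. Mrpl40, particular to mitochondria, had 5.80 to 6.93 CPM (median 6.61) in female sham and 6.38 to 8.82 CPM (median 7.32) in female SMC mice, at a log2 fold change of 0.21 (edgeR FDR 0.294). Mrpl39 (0.22) and Mrps36 (0.19), the protein of the alpha-ketoglutarate dehydrogenase complex, completed the 5 highest with Mrps2, Mrpl32 and Mrpl40.

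**Figure D2:**
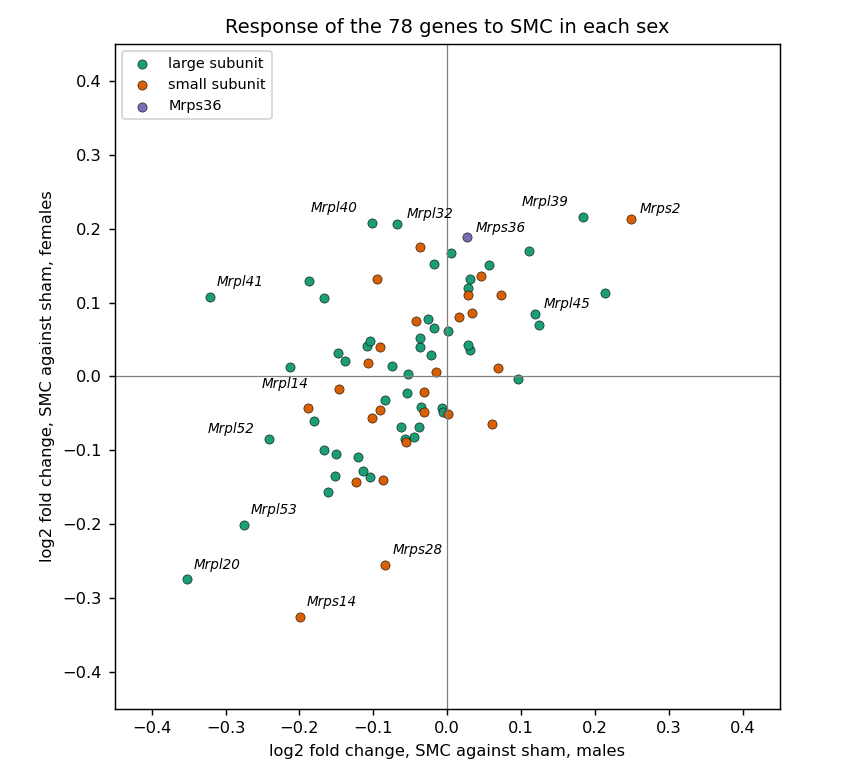
Log2 fold change of SMC against sham in males (x axis) and in females (y axis) for the 78 genes, coloured by ribosomal subunit. Of the genes, 31 lie in the lower left (lower in both sexes), 20 in the upper right, 24 in the upper left (lower in males and higher in females) and 3 in the lower right.

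The male and female comparisons share no mice. Set beside each other, 31 members were lower after SMC in both sexes (39.7%, against 32.6% of all genes), 20 were higher in both (25.6%, against 29.3%) and 24 were lower in males and higher in females (30.8%, against 18.3%). The opposite mix, higher in males and lower in females, was found for 3 members (3.85%, against 19.8%). The direct test of the difference, males minus females, gave a log2 value below 0 for 55 of 78 members, where 48.4% of all genes were below 0, with a median of -0.05 against 0.01. It called 0 members and 0 genes by edgeR (0% of all genes), and DESeq2 and limma called 0 members, beside 0.00295% and 0% of all genes. At an unadjusted p under 0.05 there were 7 members, all below 0, where 5.13% of all genes were at that level and 2.13% were below 0. With library totals in place of TMM there were 0 members at that level, beside 592 of 16408 genes. There were 4 without male SMC mouse 14 (792 of 16543 genes) or female sham mouse 11 (830 of 16531). A response of these genes that differs by sex was therefore not shown at the set threshold. The median was -0.10 without male sham mouse 4, -0.01 without male SMC mouse 14 and -0.01 without male sham mouse 3.

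By DESeq2, which scales the libraries in its own way, 7 members were also at an unadjusted p under 0.05, beside 1093 of 33905 genes. In the main fit the 7 genes were Mrpl41, Mrpl57, Mrpl40, Mrpl32, Mrpl24, Mrps21 and Mrps18b. The largest value was that of Mrpl41, at -0.43 (95% confidence interval -0.83 to -0.03, edgeR FDR 0.946), which was -0.33 without male sham mouse 4. Mrpl57, particular to mitochondria, had a difference of -0.32 (SE 0.136), from medians of 12.4 and 10.4 CPM in male sham and SMC mice and 10.2 and 11.3 CPM in female sham and SMC mice. The difference for Mrpl40 was -0.31 (SE 0.120) and for Mrpl32 -0.27 (SE 0.0992), both at an edgeR FDR of 0.926. At the other end were Mrps28 (0.17), Mrps14 (0.13) and Mrps25 (0.12), 3 small subunit genes, with 95% confidence intervals that all include 0.

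The members were also counted by subunit and by origin. In males, 38 of 51 large subunit genes were lower (median -0.05) and 17 of 26 small subunit genes (median -0.04). In females, 21 of 51 large subunit genes (median 0.03) and 13 of 26 small subunit genes (median -0.01) were lower. Members with bacterial kin were lower in 33 of 45 cases in males and 22 of 45 in females, and members particular to mitochondria in 22 of 32 and 12 of 32. Both called genes, Mrps14 and Mrpl20, are in the group with bacterial kin. Whether the groups differ was not tested. In the Mrps18 family, the bacterial-type Mrps18c had log2 fold changes of -0.11 in males and 0.02 in females, Mrps18b of the small subunit -0.04 and 0.18, and Mrps18a of the large subunit -0.02 and 0.03, all without a call. The sign of the Mrps18a values in both sexes and of the female Mrps18c value turned as single mice were left out, and differences among these genes were not tested.

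Sham males had higher levels than sham females for nearly the whole list, by a small amount per gene. Of 78 members, 73 had a log2 fold change above 0 for males against females, where 49.6% of all genes did, and the median was 0.11 against 0.00 over all genes. edgeR called 0 members, where 1.97% of all genes were called, while DESeq2 called 1, Mrpl9 (1.72% of all genes), and limma 0 (2.24%). At an unadjusted p under 0.05 there were 15 members, all higher in males, where 15.5% of all genes were at that level and 6.23% were higher in males. The count was 6 with library totals (2092 of 16408 genes), 7 without male sham mouse 3 (2233 of 16561) and 27 without male sham mouse 4 (3051 of 16568). The mean log2 CPM over the 78 genes was 4.04 ± 0.129 (SD, n = 6) in male sham and 3.94 ± 0.047 in female sham mice, and the male range, 3.85 (mouse 4) to 4.20 (mouse 3), covers the female range of 3.87 to 3.98. The same mean was 3.99 ± 0.101 in male SMC and 3.95 ± 0.0766 in female SMC mice. Without mice 4 and 7 the median difference between the sexes in sham mice was 0.15 and 3 of 78 genes were lower in males, and without male sham mouse 3 they were 0.08 and 10.

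Mrpl9, a relative of bacterial L9 in the large subunit, came nearest to a call. Its CPM was 21.4 to 26.2 (median 23.8) in male sham and 17.2 to 20.96 (median 19.8) in female sham mice. Every male was above every female, the only member so placed, where 1.13% of all genes had groups without overlap and 0.609% had every male above. The log2 fold change was 0.29 (SE 0.0812, edgeR FDR 0.0574, DESeq2 FDR 0.0243). With 1 mouse left out, edgeR called 1 member without female sham mouse 7 or 12 or female SMC mouse 22 or 23. That member was Mrpl9 in at least 3 of these fits. Mrpl14, a relative of bacterial L14, had the highest value, 0.39 (SE 0.163, edgeR FDR 0.243), with 16.8 to 33.2 CPM (median 25.2) in males and 13.6 to 23.6 CPM (median 18.8) in females. Its ranges overlapped widely. Mrpl41 followed Mrpl9 at 0.28, and had 0.17 without male sham mouse 4. The 5 genes below 0 included Mrps25 (-0.13), Mrps6 (-0.09) and Mrpl37 (-0.03), and Mrpl37 turned to 0.01 without male sham mouse 4.

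**Figure D3:**
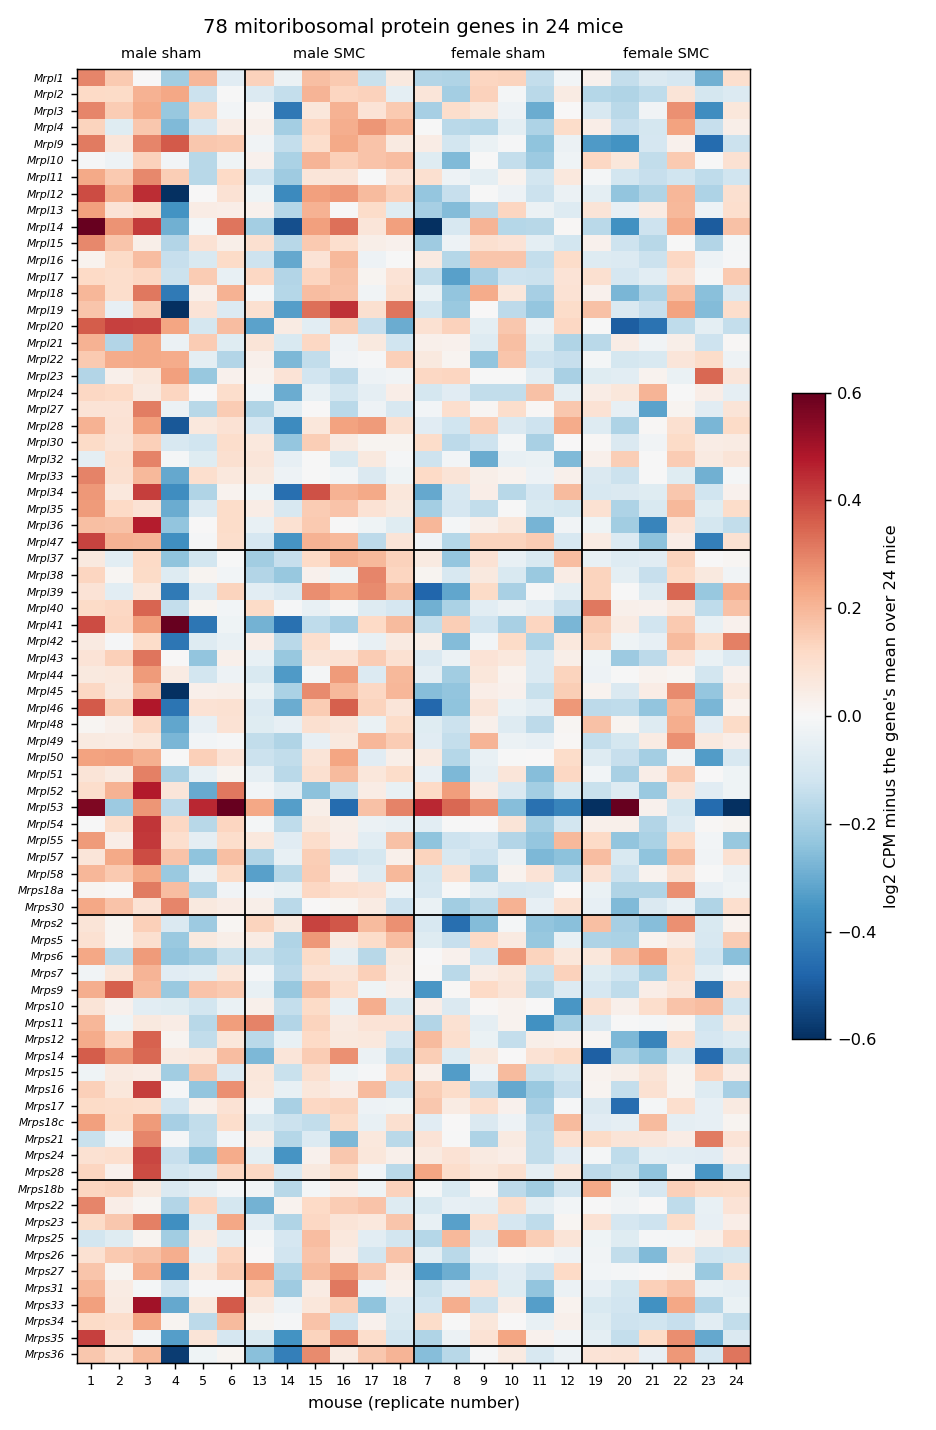
Log2 CPM of the 78 genes (rows, by subunit and origin, separated by lines) in 24 mice (columns, by group), as the difference from each gene's mean over all mice, with red above and blue below it. Mouse 3 of the male sham group is above the mean for most genes, and mouse 4 of that group and male SMC mouse 14 are below it for most genes.

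The spread within groups was small. The coefficient of variation within a group, averaged over the 4 groups, had a median of 9.34% over the members and ranged from 5.77% for Mrps34 to 27.8% for Mrpl53, which had the lowest level. Mrpl14, at 20.3%, was next. With 6 mice a group, the standard error of a log2 fold change was 0.0613 for Mrps34 and 0.239 for Mrpl53 in males.

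Neighbouring parts of the same machinery were read in the same fit. Cytosolic ribosomal protein genes, which encode the ribosome that makes all Mrp proteins, were lower after SMC in 81 of 83 cases in males (median log2 fold change -0.18) and 63 of 83 in females (median -0.09). Within females edgeR called Rpl13a, Rpl9, Rplp2, Rps10, Rps21 and Rps27a, all lower (log2 fold changes of -0.35 to -0.57), where 0.341% of all genes were called. Within males 0 genes of any kind were called. Of the 83 genes, 25 were called in the mean of both sexes, all lower. In that mean 2.36% of all genes were called and 1.33% were called lower. An example was Rps27a (-0.35, SE 0.0479, edgeR FDR 0.000981). Beside this list, the members had 55 of 78 lower in males, 34 of 78 in females and 2 called in the mean. The 36 complex I subunits of the nuclear genome, which join the products of mitochondrial translation in the respiratory chain, had 29 lower in males (median -0.06) and 16 in females (median 0.02), close to the values of the members, and 1 of them, Ndufa2, was called in the mean of both sexes (-0.30, SE 0.0593, edgeR FDR 0.00999). Sham males were above sham females for all 36 complex I genes (median 0.15), for 73 of 78 members and for 50 of 83 cytosolic ribosomal protein genes (median 0.02).

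The mRNAs that the mitochondrial ribosome translates had positive differences. All 13 protein genes of the mitochondrial genome had a log2 fold change above 0 after SMC in males (median 0.25) and 12 of 13 in females (median 0.38). Of them 1, mt-Co2, a subunit of cytochrome c oxidase, was called in females (0.66, SE 0.148, edgeR FDR 0.0497), where 0.341% of all genes were. It was also called in the mean of both sexes (0.45, SE 0.104, edgeR FDR 0.0246), where 2.36% of all genes were. As each of the 24 mice was removed in turn, the female call of mt-Co2 held 4 times, with an edgeR FDR of up to 0.112 without female sham mouse 8, and the call in the mean held 23 times, the exception being male SMC mouse 18 (edgeR FDR 0.0552). With library totals neither held (edgeR FDR 0.0772 and 0.0590), and the medians were 0.11 in males (11 of 13 above 0) and 0.27 in females (12 of 13). The female call of mt-Co2 was also lost by limma (FDR 0.0551), without the filter on low counts (edgeR FDR 0.0534) and with the 12 female libraries alone (edgeR FDR 0.096). It held by DESeq2 (FDR 0.00558) and with at least 10 counts in every library (edgeR FDR 0.0477). The lowest sham mice set part of these values: over the 13 genes the mean log2 CPM was 7.75 in male sham mouse 4 and 7.45 in female sham mouse 8, against 8.32 to 8.81 and 8.05 to 8.61 in the other sham mice. Without the first the male median was 0.12, with 12 of 13 above 0, and without the second the female median was 0.26, with 11 of 13 above 0. Female sham mouse 8 also had the lowest skeletal muscle markers of its group and the highest red blood cell, fibroblast and macrophage markers, and their part was not tested. The 13 genes' mean log2 CPM had SDs of 0.299 to 0.436 within groups, against 0.047 to 0.129 for the members. The 2 mitochondrial rRNA genes had medians of -0.05 in males and -0.03 in females, in libraries from which rRNA was depleted, so these values are no measure of rRNA.

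The factors that build and serve the mitochondrial ribosome gave 0 calls by edgeR in all 5 comparisons. Of 27 assembly and rRNA modification factors, 16 were lower in males (median -0.01) and 20 in females (median -0.04), with 1 and 3 at an unadjusted p under 0.05, beside 11% and 12.5% of all genes. The 15 translation factors and activators had medians of 0.02 in both sexes, and the 19 mitochondrial aminoacyl-tRNA synthetases of 0.04 in males and -0.03 in females. The 11 genes of mitochondrial transcription and RNA processing had medians of -0.05 and 0.05, and the 9 regulators of mitochondrial biogenesis of -0.0045 and 0.0041. The 5 proteins of the mitochondrial ribosome whose genes lack an Mrp symbol (among them Dap3) had medians of -0.11 in males and 0.03 in females, with 3 and 2 of 5 lower.

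**Figure D4:**
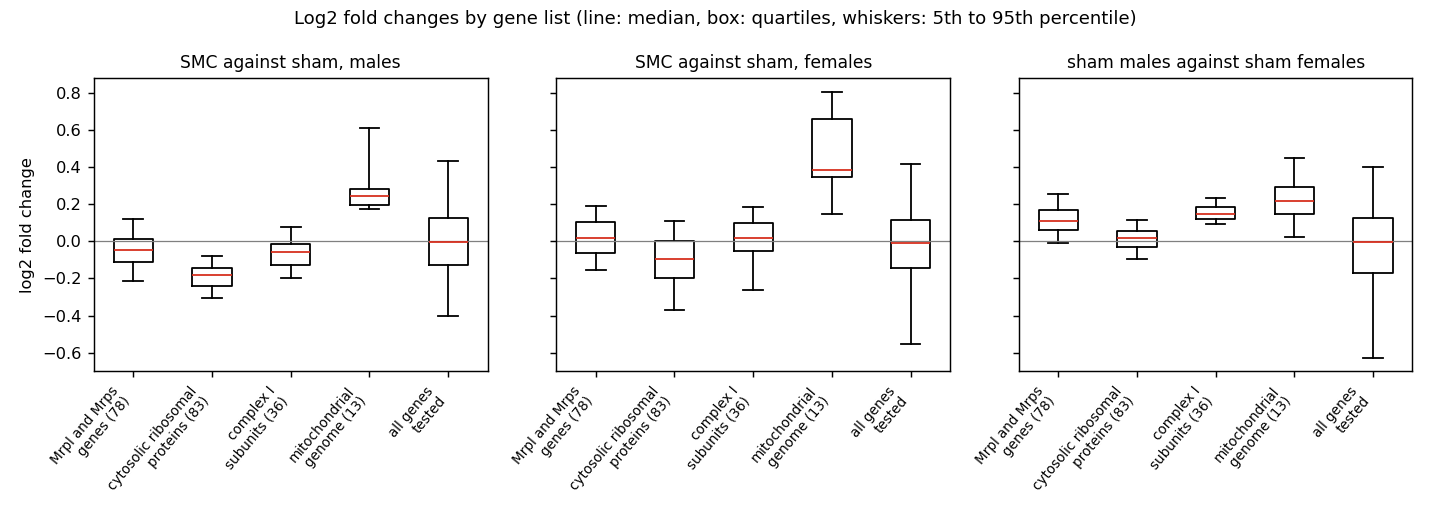
Log2 fold changes (y axis) of the 78 genes and of 4 comparison sets in 3 comparisons, as medians (red), quartiles (boxes) and 5th to 95th percentiles (whiskers). The members have medians of -0.05 in males, 0.02 in females and 0.11 for sham males against sham females, while the cytosolic ribosomal protein genes have -0.18, -0.09 and 0.02.

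The scaling of the libraries decides where 0 lies. With library totals in place of TMM the median of all genes moved to -0.13 in males and -0.15 in females, and the members with it to -0.18 (75 of 78 lower) and -0.12 (68 of 78 lower), so that the direction of the female list turns while the members stay within 0.05 of all genes. The 6 skeletal muscle markers had a summed CPM of 141800 to 286900 in male sham and 262400 to 338600 in male SMC mice, ranges that overlap. In females it was 143800 to 378200 in sham mice, which covers the 261800 to 335600 of SMC mice. None of the 6 was at 0 in all libraries and none passed the test, and their part in the results was not tested. The 6 tendon cell markers had 5 of 6 lower after SMC in females, with a summed CPM of 203.6 to 811.5 in female sham and 130.1 to 402.0 in female SMC mice. None was called, and 5 of 6 were at an unadjusted p under 0.05. In females 12.5% of all genes were at that level, 7.47% lower. Of the other lists, the 6 Schwann cell markers were all higher after SMC in males (summed CPM 47.3 to 97.4 in sham and 81.6 to 131.6 in SMC mice). The 6 fibroblast markers were all lower in females (447.4 to 1421 and 541.6 to 768.3), and the 6 red blood cell markers all lower in males (175.7 to 1585 and 267.6 to 1218) and all higher in females (75.1 to 1852 and 256.5 to 946.8). The 7 adipocyte markers were all higher in females (72.1 to 165.7 and 86.2 to 297.6), the 7 macrophage markers all lower in males (55.1 to 97.2 and 51.5 to 76.8) and the 6 endothelial markers all higher in males (258.8 to 347.2 and 266.6 to 419.6). In the other sex the mean log2 CPM of adipocyte markers fell (males, 2.074 to 1.929). That of macrophage markers rose (females, 2.806 to 2.855). Schwann cell (females, 3.543 to 3.701) and endothelial markers (females, 5.202 to 5.276) rose there too. Fibroblast (males, 6.437 to 6.346) and tendon cell markers (males, 4.006 to 3.875) fell there too. The 12 fast fibre markers went from 12.13 to 12.22 in males and 12.08 to 12.26 in females. No marker of these lists was called in either sex or was at 0 in every library, and their part was not tested either. In bulk muscle, fewer cells of a type and less RNA per cell cannot be told apart.

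Levels were compared between genes as CPM per kilobase of exon, averaged over 24 mice. They spanned 41.5-fold, from 42.9 for Mrps21 to 1.03 for Mrpl53, with a median of 6.397, against medians of 35.8 for cytosolic ribosomal protein genes and 42.9 for complex I genes. After Mrps21, a small subunit protein with bacterial kin, came Mrpl12 at 31.0, which forms the stalk that receives translation factors, then Mrpl2 at 24.1, Mrpl34 at 22.6 and Mrpl14 at 22.2, all of the large subunit. Over the 24 mice the range of Mrpl12 overlapped those of Mrps21, Mrpl2, Mrpl34 and Mrpl14, and the last 3 overlapped each other. The genes were not compared mouse by mouse, so this overlap does not show whether their order differs between mice. The lowest were Mrps25 at 1.63, Mrps35 at 1.28 and Mrpl53 at 1.03 CPM per kilobase. For Mrpl53 and Mrps25, exons of other genes cover 88.0% and 69.8% of their exon bases, which makes these levels uncertain. Large subunit genes had a median of 7.06 and small subunit genes of 4.21. Both called genes lie in the lower part, with 4.42 for Mrps14 and 3.54 for Mrpl20. The length enters this scale directly: with the longest transcript as the length Mrps21 had 65.0, Mrpl14 32.6 and Mrps35 2.41 CPM per kilobase.

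**Figure D5:**
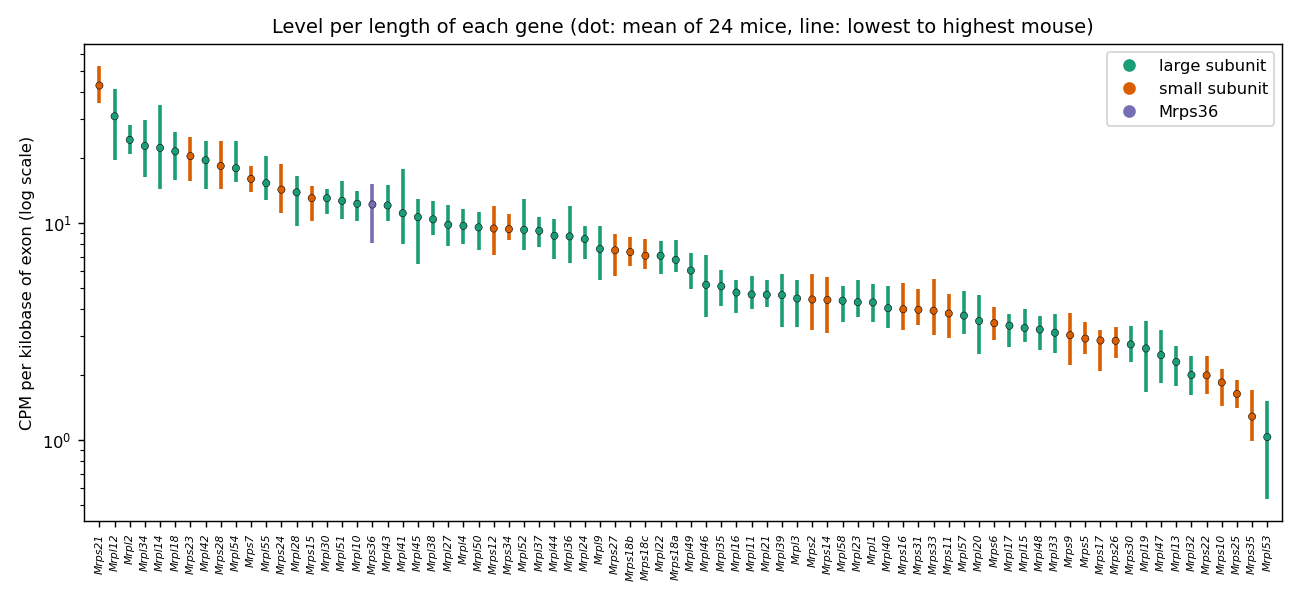
Level of each of the 78 genes as CPM per kilobase of exon (log y axis), in order of the mean over 24 mice (dots), with lines from the lowest to the highest mouse and colours for the subunits. Levels fall from 42.9 for Mrps21 to 1.03 for Mrpl53 without a break between the subunits.

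Promoter windows in RefSeq (GRCm38.p6, 250 bases before and 50 after the start) were found for 69 of 78 members. They were searched on both strands for 5 motifs with no letters allowed to differ, and a gene with several windows was counted once if any held the motif. The motif CCGGAAG, the core bound by ETS factors such as GABPA (NRF2), was in 26 of 69 windows (37.7%), against 18.8% of 10965 tested genes with a window, 9.93% of all 27025 genes of the table and 40.3% of cytosolic ribosomal protein genes. GCGCATGC, the inner part of the palindrome bound by NRF1, was in 8 (11.6%, against 5.54% of tested genes and 3.05% of all), namely Mrpl9, Mrpl10, Mrpl17, Mrpl22, Mrpl32, Mrpl33, Mrpl39 and Mrps18b. AAGATGGCG, bound by YY1, was also in 8 (11.6%, against 3.3% and 1.64%), and TATAAA was in 5 (7.25%, against 9.36% and 15.7%). CCAAT was in 27 (39.1%, against 42.2% and 41.1%). None of these motifs contains another of them, and 30 members had the NRF1 or the ETS motif and 4 had both. A match describes letters only, and no binding was measured here.

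Mrpl34 is shown as an example of a window with the ETS core, since it is among the 5 genes of highest level per kilobase of exon and its upstream stretch is free of exons. It is number 8 with the longest transcript as the length and number 51 of 78 by CPM. The stretch is chr8:71464676-71464925 (GRCm38.p6, + strand) and ends just before the start of transcription, and the capitals mark the core. Its CPM was 10.5 to 18.1 (median 13.97) in male sham and 9.92 to 17.7 (median 14.9) in male SMC mice, and its log2 fold changes were 0.03 in males and 0.04 in females, both of which changed sign as single mice were left out.
Mrpl34: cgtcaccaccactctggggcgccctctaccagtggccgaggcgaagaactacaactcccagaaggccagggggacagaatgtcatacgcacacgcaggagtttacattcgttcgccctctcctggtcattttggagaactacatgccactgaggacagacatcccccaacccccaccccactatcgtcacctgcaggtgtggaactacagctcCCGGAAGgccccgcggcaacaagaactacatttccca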

How the data were processed

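Muscle RNA of 24 mice was sequenced from strand-marking libraries depleted of rRNA. The deposited values are raw counts per Ensembl gene, which the authors did not normalize; the submitters' processing notes name cutadapt 1.16, STAR 2.7.9a, featureCounts 1.6, DESeq2 1.34.0 and GRCm39, while the annotation release and the strand setting are not given in the sources used here. Symbols were matched by Ensembl ID (52083 of 55416 genes, with 0.361% of counts on genes without one), and biotype and exon lengths came from GENCODE M21. Of the members, 33 share exon bases with another gene. Counts were filtered by filterByExpr (16408 genes kept), scaled by TMM and fitted in edgeR 4.0.16 (R 4.3.3) as 1 model of 24 libraries and 4 group means, with two-sided quasi-likelihood tests of 5 contrasts. Standard errors came from the F statistic and log2 CPM used a prior count of 2. Alternatives were DESeq2 1.42.0, limma 3.58.1 with voom weights, library totals, other filters, 1 sex alone, 2 sham mice left out, and each mouse left out. Named genes are the called members, the 5 highest and 5 lowest responses in each sex, members without overlap, the 5 highest and 3 lowest levels, the 3 highest and 3 lowest values between the sexes, and the Mrps18 family; Mrpl10, Mrpl17, Mrpl24 and Mrps30 were named after their values were seen. Members and lists were chosen with earlier results of these data known. Precision rests on 6 mice per group. Scripts were tested on simulated data. No pair among 60 within groups was a duplicate.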

Additional observations from a re-analysis of the deposited data

Results flagged for a closer look

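Of 128 sets of 6 mice examined for the 29 named genes and the list means, 8 held a mouse far from the other 5, by Dixon's criterion on the gap to the nearest mouse relative to the whole range. Chance alone gives such a mouse in about 1 in 20 sets. In male sham mouse 4, one of the 2 mice with low slow fibre markers, Mrpl19 was 9.11 CPM (others 13.4 to 15.9), Mrpl45 was 16.9 CPM (others 27.9 to 31.2) and Mrps36 was 10.3 CPM (others 15.03 to 17.5). In male sham mouse 3, Mrps21 was 38.7 CPM, where the other male sham mice had 28.6 to 31.4. In female SMC mouse 22, Mrpl2 was 29.7 CPM (others 24.8 to 26.5) and Mrps18a was 30.1 CPM (others 21.9 to 24.4). Female SMC mouse 21 had 8.62 CPM of Mrps18c (others 7.21 to 7.64), and female SMC mouse 23 had 39.1 CPM of Mrps21 (others 32.5 to 34.2).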

How the results depend on the processing

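No paired analysis was made, because the labels give no pairing of mice. The paper states that sham and SMC mice shared housing in pairs for some experiments, and the labels do not say whether these mice did. Of the values compared, the direction of each called gene held under every alternative. DESeq2 moved the number of all genes called to 132 in males, 260 in females, 1 for males minus females, 774 in the mean of both sexes and 583 between sham sexes, and called 1 member in females and 1 between sham sexes. Limma with voom weights called 93 genes in males and 16 in females, with 8 members lower in sham males. Library totals in place of TMM called 215 genes in females, 1861 in the mean of both sexes and 179 between sham sexes, with 11 members called in the mean of both sexes. They put the median of the members at -0.18 in males, -0.12 in females and -0.16 in the mean, with 68 members lower in females and 74 in the mean, and 2 lower in sham males. Without a filter on low counts, edgeR called 189 genes and 0 members in the mean of both sexes. There 14 members and 4064 of 33905 genes were at an unadjusted p under 0.05. In the same setting 3 members were lower in sham males, and with at least 10 counts in every library there were 8. With the 12 female libraries alone 14 genes were called. The cause of these moves was not tested.

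Leaving out each mouse in turn, or male sham mouse 4 with female sham mouse 7, genes called ranged from 0 to 78 in males (78 without male sham mouse 5), from 0 to 155 in females (0 without female SMC mouse 22 or 23, 147 without female sham mouse 9, 155 without both mice), from 0 to 1 for males minus females, from 236 to 526 in the mean of both sexes (236 without male sham mouse 1, 526 without both mice) and from 187 to 511 between sham sexes (187 without male sham mouse 2, 511 without both mice). Members called stayed at 0 in males, in females and for males minus females, and ranged from 2 to 3 in the mean and 0 to 1 between sham sexes. Members below 0 ranged from 44 to 66 in males, 29 to 41 in females, 44 to 69 for males minus females, 43 to 49 in the mean and 3 to 10 between sham sexes (10 without male sham mouse 3 or female sham mouse 11). Their median ranged from -0.10 to -0.01 in males, -0.01 to 0.04 in females, -0.10 to -0.01 for males minus females, -0.04 to -0.01 in the mean and 0.08 to 0.16 between sham sexes.

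Among the 29 named genes in 5 comparisons (145 values), the direction turned for 39 as single mice were left out, none of them called in any of those fits: 6 in males, 8 in females, 14 for males minus females, 7 in the mean and 4 between sham sexes. Of the values this text names for their size, directions turned for Mrpl37 between sham sexes (0.0042 with library totals, -0.074 to 0.025 as mice were left out, with 0.025 without mice 4 and 7, 0.014 without male sham mouse 4, 0.018 without female sham mouse 12), and in males with library totals for Mrpl4 (-0.012) and Mrpl45 (-0.019), none of them called. Depth limits Mrpl53 most, with as few as 11 counts in a library.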
